A study of Mustela putorius furo with 7 samples.

Results

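Isolated open regions are stretches of accessible chromatin that stand alone, with no other region of the consensus set within 100 kb on either side. They were chosen by position only, on ferret scaffolds whose last region ended at 1000000 bp or beyond, by the gap between the end of one region and the start of the next. In all, 867 regions met this rule, of 89305 on the 332 long scaffolds (0.971%) and of 95129 in the whole set. The remaining 88438 regions on the long scaffolds served as the comparison.

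In ATAC-seq a transposase cuts DNA and adds sequencing adapters where nucleosomes are loose or absent, so reads pile up at promoters, enhancers and sites bound by architectural proteins such as CTCF. Open regions usually crowd around active genes. Long stretches with few open regions include gene deserts and chromatin that is packed in the cell type studied. A single open site in such a stretch can be a distal enhancer, an anchor of a chromatin loop or the promoter of a lone gene.

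The cultures were polarized pancreatic ductal epithelia (PDE) grown from pancreata of newborn ferrets aged 1 to 3 days. WT donors had intact CFTR. CF donors carried the CFTR KO/KO genotype, a knockout line made by nuclear transfer from gene-targeted fibroblasts, which per the study makes no CFTR mRNA or protein. CFTR is the chloride and bicarbonate channel of the duct. Cells of both genotypes were passaged 10 times, then kept at an air-liquid interface for 14 days, and each library was made from about 50000 cells. By the labels there were 3 CF and 4 WT donors, whereas the methods of the study give both genotypes the same number. Whether the 4 WT libraries stand for separate donors is therefore not settled, and p-values here cover the spread among libraries. The cell type could not be checked against marker genes, since the matrix pairs no region with a gene and no annotation of the assembly was used here.

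Depth differed between the genotypes. Libraries held 8469877 to 11047724 reads in regions for CF and 3226534 to 8172005 for WT. In the isolated regions this left a median of 18 to 26 reads per region in CF libraries and of 5 to 12 in WT libraries, and such numbers limit the precision of single values. The lowest value in the matrix equals 1 read, and 0 reads and 1 read are the same there. In at least 1 WT library 381 of the 867 isolated regions (43.9%) sat at that minimum, as compared to 24.9% of the remaining regions, and 64 isolated regions did so in a CF library.

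Names of matrix columns and of peak lists did not go together. For 7 of 7 columns the list with the best correlation over the isolated regions came from the same genotype, but for 1 of 7 did it carry the same number, and column WT4 went best with list WT1. Libraries are therefore named by their matrix column when signal is given and by their list when peaks are given.

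Most isolated regions had a neighbour in both directions. They were spread over 236 of the 332 long scaffolds, 779 with a region on both sides and 88 at the end of a scaffold's set. The nearest region was a median of 131.1 kb away (quartiles 114.0 and 160.9), as compared to 5.6 kb for the remaining regions. For 209 isolated regions (24.1%) the nearest region was itself isolated. Unbroken runs were short, with 500 isolated regions on their own, 134 runs of 2, 23 of 3, 5 of 4 and 2 of 5. The runs of 5 lay on GL897002 from 924857 to 2068699 and on GL897031 from 2254286 to 2914533. On GL897002, GL897037 and GL897031 isolated regions made up 10.1%, 12.5% and 9.32% of all regions, as compared to 1.49% on GL896898, which held the most (28).

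Isolated regions were weaker and narrower than the rest. Their median log2(signal + 1), where signal is reads scaled by the authors with 1 factor per library, was 4.002 ± 0.17 (SD, n = 3) in CF and 3.84 ± 0.27 (SD, n = 4) in WT libraries. In the remaining regions it was 4.74 ± 0.02 (SD, n = 3) and 4.85 ± 0.02 (SD, n = 4). The level was thus lower in isolated regions in 7 of 7 libraries. Their median width was 458 bp (quartiles 344 and 625.5), as compared to 559 bp (415 and 773). Among regions of like signal, described below, they were narrower only in the lowest class. They made up 0.911% of all regions and took 0.474% ± 0.062 of the reads in CF libraries (SD, n = 3) and 0.360% ± 0.074 (SD, n = 4) in WT libraries.

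The gap to the remaining regions varied between libraries of 1 genotype. In CF libraries the isolated regions lay at −0.56 in CF1, −0.87 in CF2 and −0.78 in CF3 relative to the remaining regions on the log2 scale. In WT libraries this difference was −0.75 in WT1, −1.29 in WT2, −0.81 in WT3 and −1.21 in WT4. WT2 and WT4 stood below every CF library, while WT1 and WT3 lay within the CF range, so the genotypes overlapped.

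**Figure D1:**
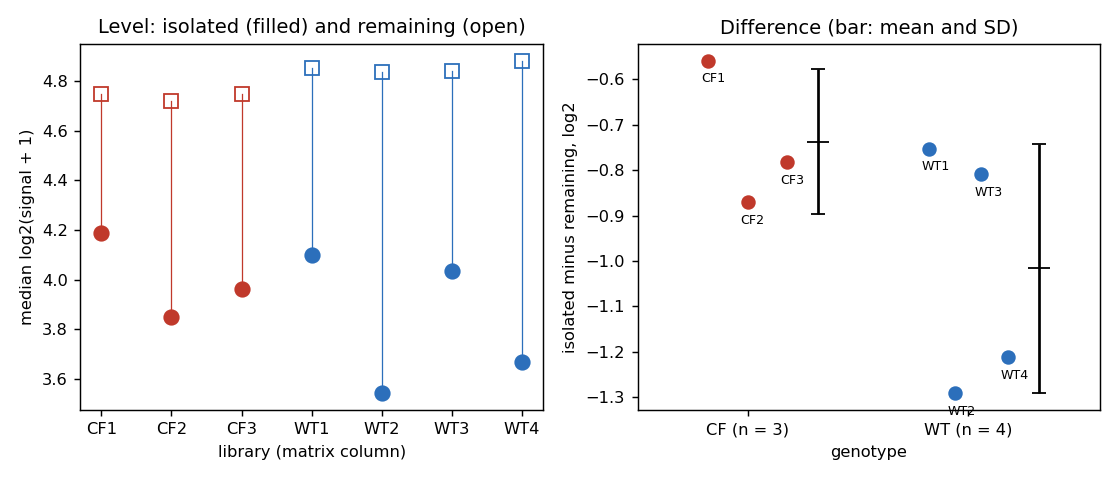
Left, median log2(signal + 1) (y axis) of isolated regions (filled circles) and remaining regions (open squares) in each library (x axis, matrix column). Right, the difference of these medians by genotype (x axis), where points are libraries and bars give mean and SD (red, 3 CF; blue, 4 WT). The remaining regions lie between 4.72 and 4.88, whereas the isolated regions spread from 3.54 in WT2 to 4.19 in CF1.

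Signal was lower the farther away the nearest region lay. The median log2 signal was 4.97 in the 14849 regions with a neighbour under 1 kb away, 4.45 in the 35320 regions at 5 to 20 kb, 3.79 in the 2747 regions at 50 to 100 kb, 3.67 in the 773 isolated regions at 100 to 200 kb and 3.45 in the 94 isolated regions beyond 200 kb. Across the 5 classes from 5 to 20 kb outward the share of regions with a peak in all 7 lists went from 28.1% to 13.8%, and that with a peak in 2 lists, the fewest a region had, from 22.8% to 43.6%. Median signal on either side of the 100 kb limit, at 3.79 and 3.67, was close.

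**Figure D2:**
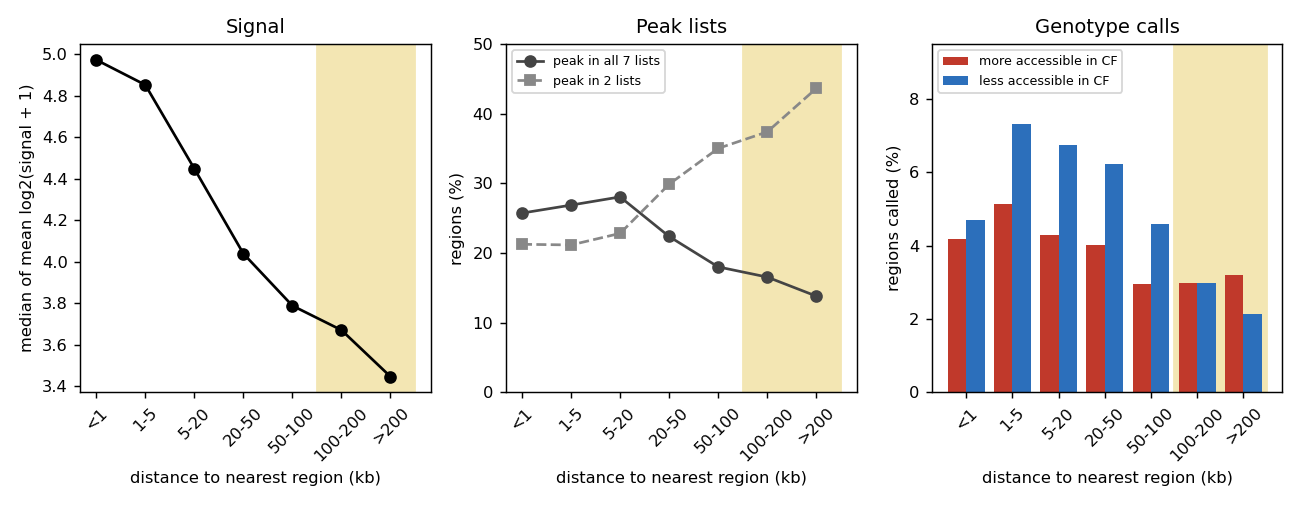
Regions of the long scaffolds by distance to the nearest region in kb (x axis), with the median of mean log2(signal + 1) (left), the share with a peak in all 7 or in 2 lists (middle, %) and the share called more (red) or less (blue) accessible in CF cultures (right, %). Shading marks isolated regions. Signal falls from 4.97 to 3.45. The closed share is 4.70% under 1 kb and 7.33% at 1 to 5 kb. From there it falls to 2.13% beyond 200 kb, where 2 of 94 regions were called closed.

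Regions on either side of the limit varied in signal. The isolated region nearest to the limit, on GL897084 from 1291648 to 1292035, had its closest neighbour 100.1 kb away and a mean signal of 7.75 in CF and 9.48 in WT libraries. The next members, on GL897000 and GL896977, lay 100.2 kb from a neighbour. Just outside, 99.9 kb from each other, were a pair of regions on GL897002, with mean signals of 20.0 and 77.5 in CF libraries, and a region on GL897204 at 99.7 kb with 46.3.

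Isolation was defined on the consensus set, which kept regions with a peak in at least 2 lists, and left out peaks found in 1 list alone. Within 100 kb of an isolated region lay a median of 8 peaks found in 1 list alone (quartiles 6 and 12, highest 31), the closest at a median of 8.3 kb. In 6 of the 867 isolated regions there was no such peak.

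Taken over all levels of signal, peaks in the isolated regions were called in fewer cultures. This did not hold among regions of like signal, described below. A peak was present in 38.1% of them in 2 lists and in 16.3% (141 regions) in all 7 lists, as compared to 23.3% and 26.4% of the remaining regions. In CF lists 61.7% to 70.1% of isolated regions had a peak, and in WT lists 33.1% to 55.2%. List length differed too, at 79014 to 104397 peaks in CF and 48417 to 89157 in WT lists, and for the remaining regions the shares ran from 64.5% to 77.1% in CF and from 39.4% to 75.2% in WT lists.

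The shortfall of isolated against remaining regions was −2.80 to −8.59 percentage points in the CF lists. It was −16.8 and −19.95 in lists WT1 and WT3 and −6.29 and −7.42 in lists WT2 and WT4. By correlation lists WT1 and WT3 went best with columns WT4 and WT2, the columns in which isolated regions had the lowest signal. Where a peak was called, its fold enrichment over local background in isolated regions, as a median per list, ran from 5.32 to 6.27, and in the remaining regions from 5.43 to 6.34. Peaks in CF lists alone were found in 169 isolated regions (19.5%), and in WT lists alone in 85 (9.80%), as compared to 12.4% and 10.1% of the remaining regions.

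To evaluate whether accessibility of isolated regions differed in the absence of CFTR, they were read from a limma fit of genotype over all 95129 regions. CF cultures had 26 isolated regions that opened and 25 that closed (adjusted p under 0.05 and log2 change past 1), together 5.88% of the 867. In the background of all regions 10.6% were called, 4.31% as opened and 6.26% as closed. The isolated regions lay below it in both directions, at 3.00% and 2.88%. Of the remaining regions 4.46% opened and 6.44% closed. At an unadjusted p under 0.05 were 15.6% of isolated and 26.2% of remaining regions. Both counts moved with single libraries: 8 opened and 14 closed without CF1, 7 and 10 without CF2, 6 and 11 without CF3, and 17 and 16 without WT2. The split between directions moved with scaling, from 43 opened and 12 closed with library size alone to 35 and 16 with upper-quartile scaling and 14 and 35 with cyclic loess. The split moved in the remaining regions too. Their shares opened and closed were 8.11% and 3.69% with library size alone. They were 6.06% and 4.85% with upper-quartile scaling and 3.86% and 6.55% with cyclic loess.

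Libraries of the genotypes did not overlap in 128 isolated regions (14.8%), as compared to 24.2% of all regions. Of these, 90 had every CF library above every WT library (10.4%) and 38 had every CF library below (4.38%). Over all regions these shares were 11.5% and 12.8%. The share was thus close to that of all regions where CF was above WT, and lower where CF was below. The spread between libraries was larger in isolated regions, with a median residual SD of 0.81 on the log2 scale as compared to 0.60 in the remaining regions, and their median SE of the change was 0.68 as compared to 0.52. A change past 1 on the log2 scale in either direction was about as frequent, at 26.5% and 28.3%, before any test.

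As a group, isolated regions leaned toward CF. Their median log2 change, CF minus WT, was 0.24 (quartiles −0.23 and 0.77). It was 0.03 in the remaining regions and 0.03 in all regions. The change was above 0 in 562 of 867 isolated regions (64.8%), as compared to 51.4% of remaining and 51.8% of all regions. The lean was not particular to isolated regions. Regions 50 to 100 kb from a neighbour had a median change of 0.17. In the lowest class of mean log2 signal, described below, the median was 0.52 in remaining and 0.48 in isolated regions. The size of the median over all isolated regions depended on single libraries, at 0.08 without CF1, 0.11 without WT2, 0.14 without WT4 and 0.36 without WT3. It depended on scaling as well. With cyclic loess it was 0.057, only 0.030 above the remaining regions, and with library size alone it was 0.58, which is 0.21 above them as in the fit reported here. A further alternative, added after the data were seen, centred the isolated regions of each library on the remaining regions. It gave a median of −0.041, with 13 regions opened and 40 closed. This value follows from the centring, which takes out the shift of isolated regions, and is no measure of the lean. The part of the floor of 1 read, which WT libraries met more often, was not tested.

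Called shares were also compared within 5 equal classes of mean log2 signal, from class 1 (lowest) to class 5 (highest), over the long scaffolds. The mean is over all 7 libraries, so the change itself enters it. Class 1 held 43.4% of isolated regions and class 5 held 6.69%. In class 1, 14 of 376 isolated regions opened (3.72%) and 3 closed (0.798%), as compared to 6.75% and 2.76% of remaining regions. In class 4, 2 of 91 opened and 8 closed (8.79%), as compared to 4.47% and 10.97%. In class 5, 0 of 58 isolated regions were called in either direction by limma, while 1.81% of remaining regions opened and 5.73% closed. The median log2 change of isolated regions was above that of remaining regions in classes 2 to 5, at 0.28 and 0.20 in class 2, 0.16 and 0.01 in class 3, 0.06 and −0.07 in class 4, and 0.11 and −0.13 in class 5. In class 1 it was 0.48 and 0.52. In each class the called share was lower in isolated regions, and their residual SD was higher in 4 of the 5 classes. A peak in all 7 lists was more frequent in isolated than remaining regions in class 3 (19.6% and 4.42%), class 4 (62.6% and 36.9%) and class 5 (98.3% and 89.7%). In class 2 it was 0% and 0.113%, and in class 1 0% in both. Median width was 347.5 and 364 bp in class 1. In classes 2 to 5 isolated regions were wider, at 469.5 and 462, 613.5 and 557, 723 and 685, and 1151.5 and 968 bp.

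**Figure D3:**
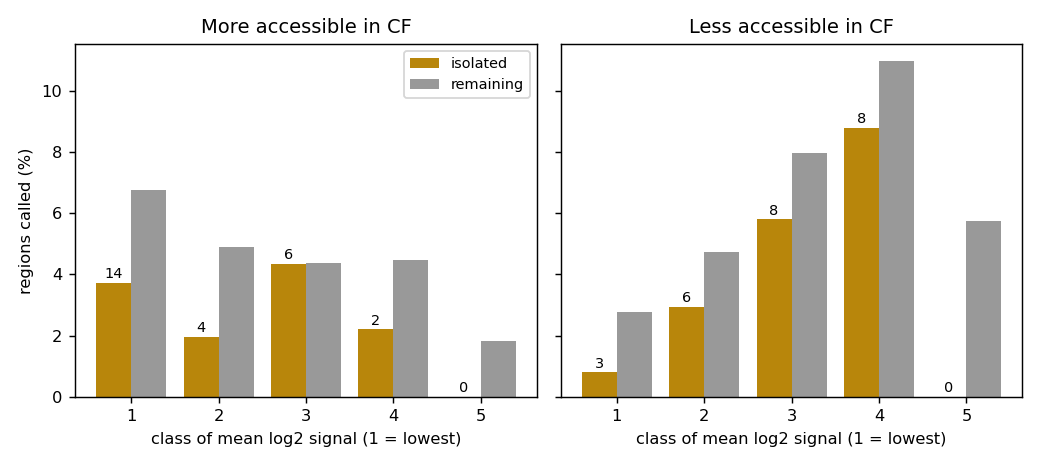
Share of regions called (%, y axis) as more accessible (left) or less accessible (right) in CF cultures, by class of mean log2 signal (x axis, 1 = lowest), for isolated (gold) and remaining (gray) regions, with the number of isolated regions called above each gold bar. The gold bar is below the gray bar in each class, and in class 5, 0 of 58 isolated regions were called.

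The 26 opened regions were mostly faint in WT cultures, with a median width of 591.5 bp on 24 scaffolds. The median over these regions of the mean log2 signal was 4.88 in CF and 2.37 in WT libraries, and 20 of 26 sat at 1 read in at least 1 WT library. Of the 26, 13 had a peak in all CF lists and in no WT list (50%), 20 had no peak in a WT list (76.9%), and 1 had a peak in all 7 lists (3.85%). For opened regions among the rest these shares were 43.5%, 60.2% and 5.36%. Log2 changes ran from 1.32 to 3.50 with a median of 2.38, beside 2.26 in opened regions among the rest. In 26 of 26 every CF library was above every WT library, which the calling rule favours, as it uses the same values.

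The most significant opened region lay on GL896902 from 18797422 to 18798702, 125.7 kb from its nearest neighbour. Its signal was 179, 112 and 126 in CF1, CF2 and CF3, and 30.8, 10.7, 3.08 and 13.4 in WT1 to WT4. Each CF library was more than 3 times the highest WT library, WT1. CF differed from WT by 3.50 ± 0.52 on the log2 scale (SE, adjusted p by limma = 0.000188), with a peak in all 3 CF lists and in no WT list.

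On GL896921, from 14606772 to 14607935, signal was 74.5, 64.9 and 46.6 in CF libraries and 16.1, 5.33, 9.23 and 3.35 in WT1 to WT4. CF differed from WT by 2.89 ± 0.57 on the log2 scale (SE, adjusted p by limma = 0.00208). This scaffold held 2 opened and 1 closed of its 9 isolated regions. At GL897020, from 1340041 to 1340519, CF libraries had 29.0, 26.9 and 23.0 and WT libraries 1.47, 2.66, 3.08 and 1.68, which is 1 read in each of WT1, WT3 and WT4. Its log2 change of 3.11 ± 0.66 (SE, limma adjusted p = 0.00388) was 2.12 with a pseudocount of 5, still past the threshold.

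A different case was the region on GL896898 from 12990930 to 12991697, which had a peak in 3 WT lists as well as in all CF lists. Its signal was 94.9, 84.3 and 78.1 in CF libraries and 27.9, 43.5, 15.4 and 21.8 in WT1 to WT4. The change was from an open to a more open state, by 1.72 ± 0.38 on the log2 scale (SE, limma adjusted p = 0.00499). Also open in some WT cultures was the region on GL896949 from 2958958 to 2959700, with a mean signal of 63.3 ± 11.7 (SD, n = 3) in CF and 19.5 ± 11.4 (SD, n = 4) in WT libraries. It was not called when any 1 of the CF libraries was left out.

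The region farthest from any other was itself among the opened. It lay on GL897111 from 20093 to 20687, before any other region of its scaffold, and its only neighbour was 499.9 kb away. Signal was 29.0, 49.98 and 32.02 in CF libraries and 8.80, 10.7, 3.08 and 5.03 in WT1 to WT4, so that the genotypes did not overlap. CF exceeded WT by 2.34 ± 0.61 on the log2 scale (SE, limma adjusted p = 0.0152). The call was lost when any 1 of the CF libraries was left out and after thinning to equal reads. What lies on its other side, beyond the start of the scaffold, is not known. The next most distant regions lay on GL896910, GL897052, GL896913 and GL897114, 397.2 to 420.0 kb from a neighbour. Of these, the region on GL897114 from 3065787 to 3066145 had 14.2 to 20.4 in CF and 3.08 to 5.87 in WT libraries, with a limma adjusted p of 0.0619. The other 3 were faint in both genotypes, with mean signals of 12.5 to 18.2 in CF and 7.93 to 12.3 in WT libraries.

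The remaining 4 of the 10 named opened regions lay on GL896985, GL896931, GL897004 and GL897160. Their log2 changes ran from 2.03 to 3.07, with 3 of 3 CF lists holding a peak in each. The region on GL897004 was not called without CF2 or without CF3, and that on GL897160 without any 1 of the CF libraries.

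Closed regions had a higher level in WT libraries than opened regions, which the calling rule favours, as it uses the same values. In the 25 closed regions the same median was 5.46 in WT and 3.45 in CF libraries. Of these, 7 had a peak in all WT lists and no CF list (28%), 15 had no peak in a CF list (60%) and 2 had a peak in all 7 lists (8%). For closed regions among the rest these shares were 15.2%, 43.5% and 28.3%. Log2 changes ran from −4.32 to −1.25 with a median of −2.01, beside −1.95 in the rest. In 21 of 25 the libraries of the genotypes did not overlap, which the calling rule favours here as well.

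The most significant closed region lay on GL896901 from 20912074 to 20912553. Its signal was 42.6, 59.5, 76.9 and 33.5 in WT1 to WT4, and 0.784, 0.746 and 4.49 in CF libraries, which is the minimum of 1 read in CF1 and CF2. CF differed from WT by −4.32 ± 0.63 on the log2 scale (SE, adjusted p by limma = 0.000152), or −3.03 with a pseudocount of 5. It had a peak in all 4 WT lists and in no CF list. The region nearest to it, 132.8 kb away, had a log2 change of 3.39.

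On GL897012, from 4755945 to 4756673, signal was 107, 93.3, 52.3 and 57.0 in WT1 to WT4 and 11.8, 9.70 and 12.9 in CF libraries. CF differed from WT by −2.60 ± 0.41 on the log2 scale (SE, adjusted p by limma = 0.000283). A second named region of this scaffold, from 5910121 to 5910903, had 41.1 to 92.2 in WT and 8.21 to 25.9 in CF libraries, and was not called without CF2. At GL897164, from 1833540 to 1834174, WT libraries had 114, 69.3, 83.0 and 26.8 and CF libraries 5.49, 9.70 and 3.93, or −3.24 ± 0.53 on the log2 scale (SE, limma adjusted p = 0.000424). The lowest WT library was WT4, still above each CF library.

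A wide region on GL896953 from 7519608 to 7520689 had 79.2, 56.0, 83.0 and 52.0 in WT1 to WT4 and 20.4, 21.6 and 15.2 in CF libraries (log2 change −1.76 ± 0.37, SE, limma adjusted p = 0.00344). The region on GL896900 from 30998023 to 30998548 kept a peak in all 7 lists while its mean signal was 20.8 ± 7.07 (SD, n = 3) in CF and 69.1 ± 23.0 (SD, n = 4) in WT libraries. It was not called without CF3. The other named closed regions, on GL897121, GL896907, GL896971 and GL897046, had log2 changes from −2.89 to −1.80. Of these, the region on GL896907 was not called without CF1 or without CF2, that on GL896971 without CF2, and that on GL897046 without CF1 or after thinning to equal reads.

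**Figure D4:**
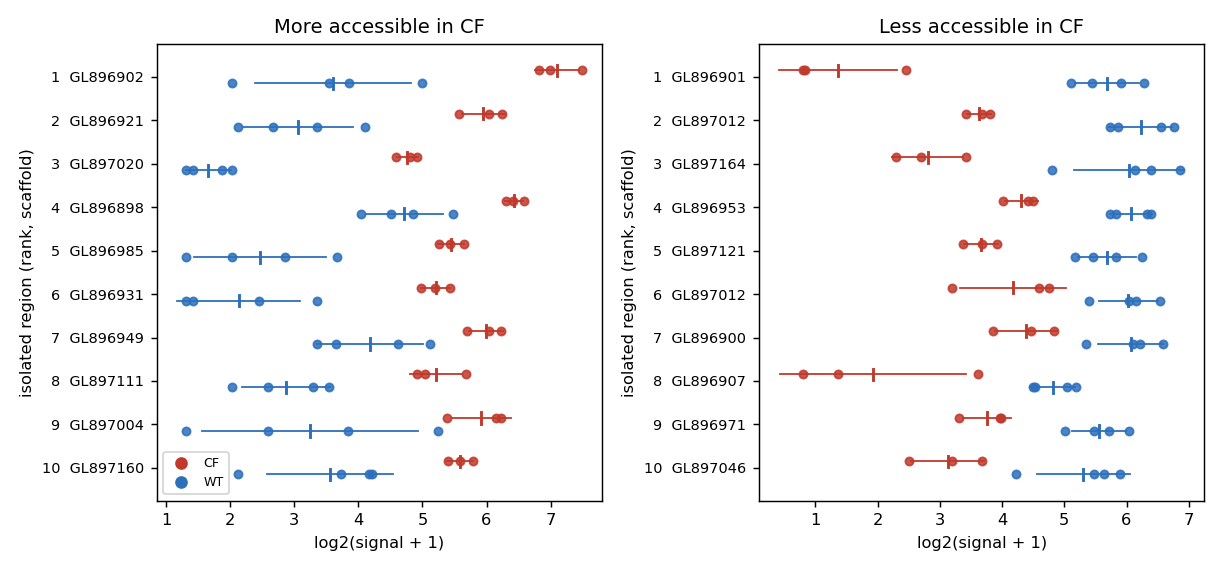
Log2(signal + 1) (x axis) of the 10 opened (left) and 10 closed (right) isolated regions with the smallest adjusted p among called regions whose genotypes do not overlap (y axis, rank and scaffold), where points are libraries, ticks are means and lines are SDs (red, 3 CF; blue, 4 WT). WT points of opened regions spread widely, as on GL896902 (signal 3.08 to 30.8), whereas 3 of the closed regions have a CF library under a signal of 4.

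On 16 scaffolds, regions of mean log2 signal above 5 had a median log2 change under −0.3 relative to the median of all such regions. The scaffolds were chosen for this pattern in these data, among those with at least 40 such regions. They held 55 isolated regions, of which 5 closed and 0 opened by limma, and 4 of the 10 named closed regions, on GL896901, GL897012 and GL897046. Of the remaining regions on these scaffolds 14.5% closed and 2.02% opened, as compared to 9.09% and 0% of the isolated regions. The choice of scaffolds favours closed calls in both. Without these scaffolds 26 isolated regions opened and 20 closed, of 812.

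The nearest regions of called isolated regions were mostly not called. Of the 26 opened isolated regions, 3 had a nearest region that was called opened as well (11.5%), and for 19 the nearest region changed with the same sign. Of the 25 closed, 1 had a nearest region called closed, and for 8 the sign was the same. Among the remaining regions, whose neighbours are far closer (median 5.6 kb), the nearest region was called the same way for 16.0% of opened and 17.0% of closed regions. For these the same sign was seen in 72.4% and 67.0%.

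The isolated regions of highest signal had a peak in all 7 lists, and their genotypes overlapped. Whether their sequence occurs once in the genome could not be checked without the assembly, so that such high signal cannot be read as accessibility alone. The highest, on GL896958 from 9295311 to 9297001, had a signal of 2766, 1881 and 2048 in CF1 to CF3 and 2325, 1250, 2989 and 1495 in WT1 to WT4. The mean was 2232 ± 470.4 (SD, n = 3) in CF and 2015 ± 796.1 (SD, n = 4) in WT libraries, which overlapped. The difference was 0.21 ± 0.25 on the log2 scale (SE, limma adjusted p = 0.648). WT2 and WT4 were lowest, and CF1 and WT3 highest.

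The same order was seen on GL897025 from 2100972 to 2102456, with 1968, 1193 and 1318 in CF1 to CF3 and 1513, 842, 1750 and 1136 in WT1 to WT4. On GL896921, from 13277286 to 13277987, the values were 852, 616 and 646 in CF libraries and 775, 385.5, 864 and 531 in WT libraries. In these 3 regions CF1 was above the other CF libraries, and WT1 and WT3 above WT2 and WT4. The next, on GL897031 from 1423948 to 1424971 and on GL897226 from 150683 to 151919, had log2 changes of −0.16 ± 0.19 and −0.03 ± 0.19 (SE), and on GL897031 CF2 was the highest CF library.

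This library order was common among isolated regions. In class 5, 42 of 58 isolated regions (72.4%) had WT1 and WT3 both above WT2 and WT4, as compared to 19.9% of remaining regions in that class, and CF1 was the highest CF library in 46 of 58 (79.3%), as compared to 26.3%. Over all signal levels the shares were 37.6% and 54.6% in isolated and 17.5% and 33.6% in remaining regions. In class 5 the median log2 signal of isolated minus remaining regions was 0.49 in CF1, −0.06 in CF2 and 0.15 in CF3. It was 0.46 in WT1, −0.43 in WT2, 0.52 in WT3 and −0.28 in WT4. The differences between libraries of 1 genotype were larger than that between the genotypes. The cause was not tested.

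**Figure D5:**
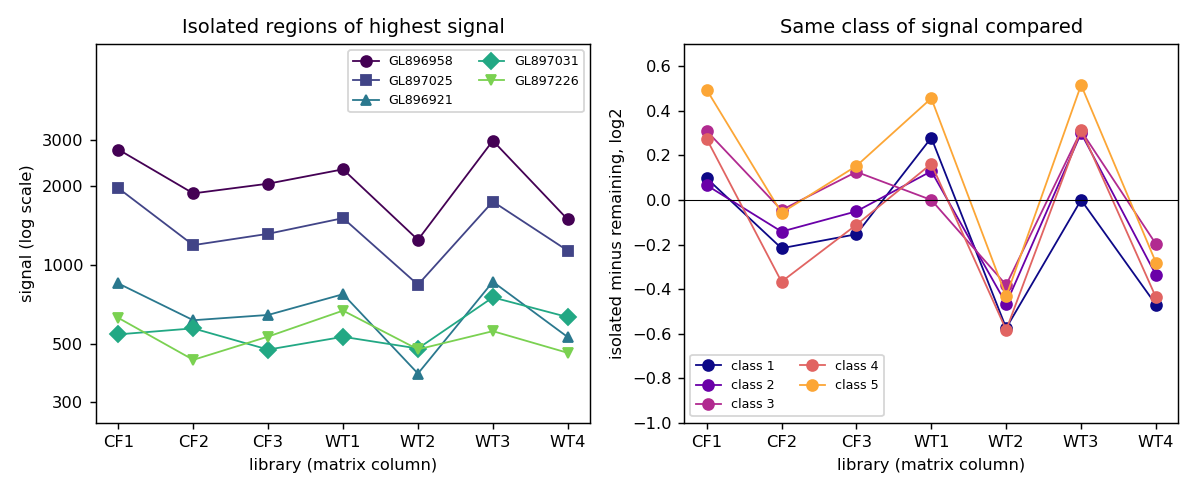
Left, signal (y axis, log scale) of the 5 isolated regions of highest signal in each library (x axis, matrix column). Right, median log2 signal of isolated minus remaining regions of the same class of signal (y axis) in each library, with a line per class, 1 = lowest. Lines only join values of 1 region or class. WT2 and WT4 lie below 0 in each class, down to −0.58, and WT3 reaches 0.52 in class 5.

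Agreement between libraries was lower in isolated regions. Pearson correlations of log2 signal across regions were 0.77 to 0.80 within CF, 0.63 to 0.74 within WT and 0.60 to 0.66 across genotypes over the 867 isolated regions, as compared to 0.88 to 0.90, 0.74 to 0.84 and 0.67 to 0.72 in the remaining regions. These are descriptions across regions, which share library and depth.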

How the data were processed

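Bulk ATAC-seq was measured in 3 CF and 4 WT cultures. For the authors' files, Trimmomatic trimmed the reads, Bowtie 2 mapped them to MusPutFur1.0, and the authors called peaks per library with MACS2 and built the matrix with DiffBind, and 12 PCR cycles were used. Handling of duplicates and of the transposase shift is not given in the sources used here, though peak names carry the word dedup. The deposited matrix holds signal, reads per region times 1 factor per library, and reads were recovered (100% of values whole within 0.001 reads). The deposited lists hold a score (not used in a result), fold enrichment as a ratio, and −log10 p-value and q-value. Positions count from 1.

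The design was limma 3.58.1 (mean trend, R 4.3.3) on log2(signal + 1) over all regions, genotype as the only term, with calls where the Benjamini-Hochberg adjusted p over all regions was under 0.05 and the log2 change past 1, and tried on simulated data. Such fold changes understate those of regions with few reads. A peak overlapping by at least 1 bp counted as present. The members and all rules were chosen with earlier results of these data known. Named were the 10 opened and 10 closed isolated regions of smallest adjusted p without overlap of genotypes, the 5 of highest signal, the 5 farthest from a neighbour, and 3 on each side of the 100 kb limit. Medians and shares over isolated regions carry no p-value. Alternatives used edgeR 4.0.16, DESeq2 1.42.0 and limma-voom on recovered reads, other scalings, filters, pseudocounts and distances, a replicate block, and leaving out each library. Python 3.11.15, numpy 2.4.6, pandas 2.3.3 and matplotlib 3.10.9 were used.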

Additional observations from a re-analysis of the deposited data

How the results depend on the processing

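The numbers of opened and closed isolated regions depended on the scaling and on single libraries. Those of the remaining regions did so too, with 7176 opened and 3261 closed under library size alone. For isolated regions the numbers were 43 and 12 with library size alone, where their median change was 0.58, and that of the remaining regions 0.37. They were 35 and 16 with upper-quartile scaling (remaining median 0.21), 14 and 35 with cyclic loess and, as alternatives added after seeing the data, 13 and 40 with isolated regions centred per library and 22 and 16 after thinning to equal reads with TMM scaling. With isolated regions centred per library the median change was −0.041, and −0.066 relative to the remaining regions, which follows from the centring. The edgeR test called 35 and 31, DESeq2 33 and 38, and limma-voom 44 and 36. Of the 181 isolated regions that averaged 30 reads or more, 8 opened (4.42%) and 9 closed (4.97%). Of the remaining regions with as many reads, 4.81% opened and 7.88% closed, so the opened shares were close. Past a log2 change of 2, 13 closed.

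With a library left out, 6 to 32 opened and 10 to 24 closed. These were 8 and 14 without CF1, 7 and 10 without CF2, 6 and 11 without CF3, and 17 and 16 without WT2. For the remaining regions the counts without CF1 were 1418 and 3623 instead of 3940 and 5698. The isolated regions numbered 3614 at a distance of 50 kb (107 opened, 151 closed), 94 at 200 kb (3 and 2) and 1882 with no minimum scaffold length (48 and 72, median signal −0.57 relative to the rest). A peak covering at least 50% of the region in all 7 lists was found in 7.61%. For scalings, tests and libraries the cause was not tested. In all 27 settings compared, the shares of isolated regions that opened and that closed were each below those of remaining regions.

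The replicate block gave 28 and 29, and the opened region on GL897160 was not called with it. WT4 has no partner in this block, and the median change with it was 0.14, as without WT4. Samples sharing a number came from different animals, and the numbers were not taken as pairing. The deviations of matrix columns sharing a number correlated at 0.08, 0.07 and −0.02. As numbers of columns and lists did not go together, this check and the block cover column numbers only. Of the 20 named called regions, 11 were called in each alternative that tested them, and the direction was the same in 411 of 411 values. Their choice rested on the adjusted p from these same libraries and on genotypes that did not overlap. Without overlap, leaving out a library, changing the pseudocount or filtering by reads cannot reverse the direction. In those alternatives the same direction follows from the choice and is no test of it. With a median of 5 to 12 reads per isolated region in WT libraries, smaller changes could be missed.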
